A study of Mus musculus with 12 samples.

Results

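The replication-dependent histone genes were taken as the protein-coding genes whose symbol begins with Hist1h, Hist2h, Hist3h or Hist4h in the GENCODE M21 annotation of the mouse genome GRCm38, which selected 67 of 21951 protein-coding genes. Of these, 54 lie in the Hist1 cluster on chromosome 13 (21715763 to 23934851), 10 in the Hist2 cluster on chromosome 3 (96219865 to 96270132), 2 in the Hist3 cluster on chromosome 11 (58948920 to 58956830) and 1, Hist4h4, on chromosome 6 (136801553 to 136804415). By product, 6 encode linker histones H1, 18 encode H2A, 18 encode H2B, 12 encode H3 and 13 encode H4. Their chromatin was profiled with Omni-ATAC-seq, an assay whose transposase cuts and tags open DNA, in Thy1+ mouse embryonic fibroblasts (MEFs) and Thy1-/Ssea1+/Epcam+ mouse embryonic stem cells (mESCs), both isolated by cell sorting. All cells had a C57/Bl6 background and no treatment is named. Each cell type had 3 libraries (MEF 1, 2 and 4, mESC 1, 3 and 5), in which order values per library are given below, described as biological replicates in the study's methods. All 6 libraries were read by the BGI DNBSEQ-G400 and again by the Illumina HiSeqX10, which gave 12 samples. Whether the mESCs came from 1 line or several is not given in the sources used here.

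Core histones H2A, H2B, H3 and H4 form the protein spool of the nucleosome, and linker histones H1 bind the DNA that enters and leaves it. Replication-dependent copies of these genes are short, lack introns in most cases, stand in clusters and are transcribed mainly in S phase, when new DNA has to be packed. Their messenger RNAs do not end in a poly(A) tail but in a conserved stem-loop that the protein Slbp binds, and the coactivator Npat drives their transcription from a nuclear body built on the clusters. Mouse embryonic stem cells are known for a short cell cycle with a large share of cells in S phase.

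Accessible regions (peaks) were taken from the tables of each platform, in which reads were counted over fixed-width peaks found in either cell type. A peak belonged to the histone set when it lay within 1 kb of the start of an annotated transcript of a histone gene. This gave 95 peaks for 61 of the 67 genes on BGI, of 91354 peaks in all, and again 95 peaks for 61 genes on Illumina, of 87027 in all. Many peaks are shared: 26 genes have a divergent partner whose start lies close by on the other strand, and the strongest peaks of the 61 genes on BGI are only 45 distinct regions. Peaks are therefore not independent measurements of single genes. Levels are given as CPM, the reads in a peak scaled to a total of 1000000 reads in all peaks of that table and library. In bulk samples, more cells with an open site and a more open site per cell cannot be told apart.

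Promoter sequence of the genes the results turn on is shown first. Sequences are from RefSeq (build GRCm38.p6) and run 5′ to 3′ on the gene's own strand up to the base before the RefSeq start. The set holds Hist1h2aa (the largest difference between cell types), Hist1h2ak (the strongest histone peak in MEFs), Hist1h1a (no called difference at the start, but the largest difference among linker histones downstream of it) and Hist1h1c (the strongest peak in mESCs). It also holds Hist3h2ba (the Hist3 gene whose start peak was higher in mESCs) and Hist1h4d (an H4 gene whose start peak was higher in mESCs). The window of Hist1h2ak is shorter because it stops before the start of its divergent partner Hist1h2bn. Capitals mark 4 motifs on either strand: the TATA box TATAAA, the CCAAT box, the octamer ATTTGCAT that Pou2f1 binds, and the H1 box AAACACA.
Hist1h2aa promoter, chr13:23934187-23934436, plus strand: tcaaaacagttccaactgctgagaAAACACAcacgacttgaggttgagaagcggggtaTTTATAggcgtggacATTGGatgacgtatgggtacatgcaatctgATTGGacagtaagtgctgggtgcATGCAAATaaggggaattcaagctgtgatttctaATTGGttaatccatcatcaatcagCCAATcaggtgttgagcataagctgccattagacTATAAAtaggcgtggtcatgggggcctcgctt
Hist1h2ak promoter, chr13:21753913-21754075, minus strand: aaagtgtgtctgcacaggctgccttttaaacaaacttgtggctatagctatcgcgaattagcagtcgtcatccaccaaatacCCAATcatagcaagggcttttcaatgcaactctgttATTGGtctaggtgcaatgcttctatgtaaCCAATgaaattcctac
Hist1h1a promoter, chr13:23763418-23763667, plus strand: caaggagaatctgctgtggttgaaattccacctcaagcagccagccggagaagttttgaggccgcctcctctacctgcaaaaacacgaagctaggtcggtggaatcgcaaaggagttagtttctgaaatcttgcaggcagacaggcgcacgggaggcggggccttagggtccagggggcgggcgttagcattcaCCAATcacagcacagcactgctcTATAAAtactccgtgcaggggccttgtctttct
Hist1h1c promoter, chr13:23738557-23738806, plus strand: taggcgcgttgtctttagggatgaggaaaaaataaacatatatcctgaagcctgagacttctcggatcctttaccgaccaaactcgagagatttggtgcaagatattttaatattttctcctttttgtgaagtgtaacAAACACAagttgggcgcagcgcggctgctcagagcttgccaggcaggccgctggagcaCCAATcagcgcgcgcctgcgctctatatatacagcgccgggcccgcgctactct
Hist3h2ba promoter, chr11:58948661-58948910, plus strand: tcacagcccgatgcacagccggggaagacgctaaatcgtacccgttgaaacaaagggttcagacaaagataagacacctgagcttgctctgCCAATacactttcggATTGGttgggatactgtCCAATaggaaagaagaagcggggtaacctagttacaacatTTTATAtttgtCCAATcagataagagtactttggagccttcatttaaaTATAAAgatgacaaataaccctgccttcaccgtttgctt
Hist1h4d promoter, chr13:23581318-23581567, plus strand: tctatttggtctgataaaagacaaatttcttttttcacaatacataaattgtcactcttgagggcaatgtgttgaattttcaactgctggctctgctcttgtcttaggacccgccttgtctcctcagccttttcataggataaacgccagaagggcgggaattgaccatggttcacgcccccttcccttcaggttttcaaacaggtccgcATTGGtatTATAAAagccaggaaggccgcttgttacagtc

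Of the 67 genes, 62 had a promoter in the RefSeq table, read from 250 bases before to 50 bases after the start. CCAAT stood in 53 of the 62 (85.5%), against 37.9% of all 27025 RefSeq promoters of the same length. H4 stood apart, with CCAAT in 3 of 12 promoters, while all 50 matched promoters of the other 4 types held it. TATAAA stood in 35 of 62 (56.5%, against 14.2% of all promoters). The octamer stood in 13 of 62 (21.0%, against 1.75%), which were 7 of the 18 H2A and 6 of the 16 H2B promoters, and in none of the H1, H3 and H4 promoters. The H1 box stood in 9 of 62 (14.5%, against 7.14%), among them 5 of the 6 linker histone promoters. The exception was Hist1h1a, shown above. Both strands were searched, and the motifs do not overlap by their letters. Windows of divergent partners can overlap, so the same site, such as the octamer between Hist1h2ah and Hist1h2bk, can count for both genes. The shares are therefore not counts of independent promoters. A match is a description of the sequence and not evidence that a factor was bound.

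In mESCs, chromatin at the histone genes was more accessible than in MEFs at most called peaks. On BGI, 54 of the 95 histone peaks (56.8%) were higher in mESCs, 9 were lower and 32 did not pass the test (edgeR quasi-likelihood, Benjamini-Hochberg adjusted p below 0.05 over all peaks). Over all peaks of that table, 40.9% were called higher and 43.2% lower. The median log2 fold change was 0.36 for the histone peaks and -0.08 for all peaks, so the typical difference was small. On Illumina, 58 of 95 (61.1%) were higher, 7 lower and 30 not called, with a median of 0.31 against -0.03 for all peaks, where 42.1% were higher and 42.4% lower. Promoter peaks of the other protein-coding genes leaned the other way: of 25806 on BGI, 7506 were higher, 10662 were lower and the median was -0.14. In 62 of the 95 histone peaks on BGI all 3 mESC libraries lay above all 3 MEF libraries, in 10 below, and in 23 the groups overlapped, where 42.9% of all peaks had mESCs above. The same held for 60 peaks on Illumina (43.7% of all peaks). Fixing the library sizes at the depths the samples were down-sampled to, in place of the scaling used, raised the median of all peaks by 0.14 on BGI and 0.13 on Illumina and raised the histone median by the same step. The distance between the histone median and that of all peaks stayed at 0.44 and 0.43 on BGI under the 2 scalings, and at 0.34 on Illumina. A peak entered the tables when it was found in either cell type, so a peak found in only one of them was likely to differ.

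The difference was larger downstream of the start than at it. Peaks were divided by position after the data had been seen. The peak sets made for each cell type held 22 downstream and 43 start-covering histone peaks in MEFs, and 46 and 42 in mESCs. Downstream peaks were thus listed more often through mESCs, which by itself favours higher values there. The part of this selection in the result was not tested. On BGI, 41 peaks covered the start of a histone gene, 42 were centred downstream of the nearest start and 12 upstream. Of the start-covering peaks 18 were higher in mESCs, 3 lower and 20 not called, with a median log2 fold change of 0.20 and a median level of 23.6 CPM in MEFs and 28.5 CPM in mESCs. Of the downstream peaks 30 were higher, 4 lower and 8 not called, with a median log2 fold change of 0.71 and a median level of 7.54 CPM in MEFs and 14.0 CPM in mESCs. Downstream peaks were thus the weaker ones by level, and the ones called higher most often. On Illumina 23 of 44 start-covering peaks were higher and 4 lower (median 0.22), and 30 of 39 downstream peaks were higher and 1 lower (median 0.75). Peaks of other protein-coding genes had a smaller step in the same direction, with medians of -0.16 at the start and -0.10 downstream on BGI and -0.17 and -0.12 on Illumina. Of these other peaks 24.7% were higher at the start and 33.6% downstream on BGI, and 24.95% and 33.52% on Illumina. Since the median histone gene is 539 bases long, 35 of the 42 downstream peaks on BGI were centred past the end of their gene, and 26 of these 35 were higher. Of the 12 upstream peaks 6 were higher and 2 lower on BGI (median 0.40), between the other classes, and 5 of 12 were higher and 2 lower on Illumina (median 0.15), below both.

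**Figure D1:**
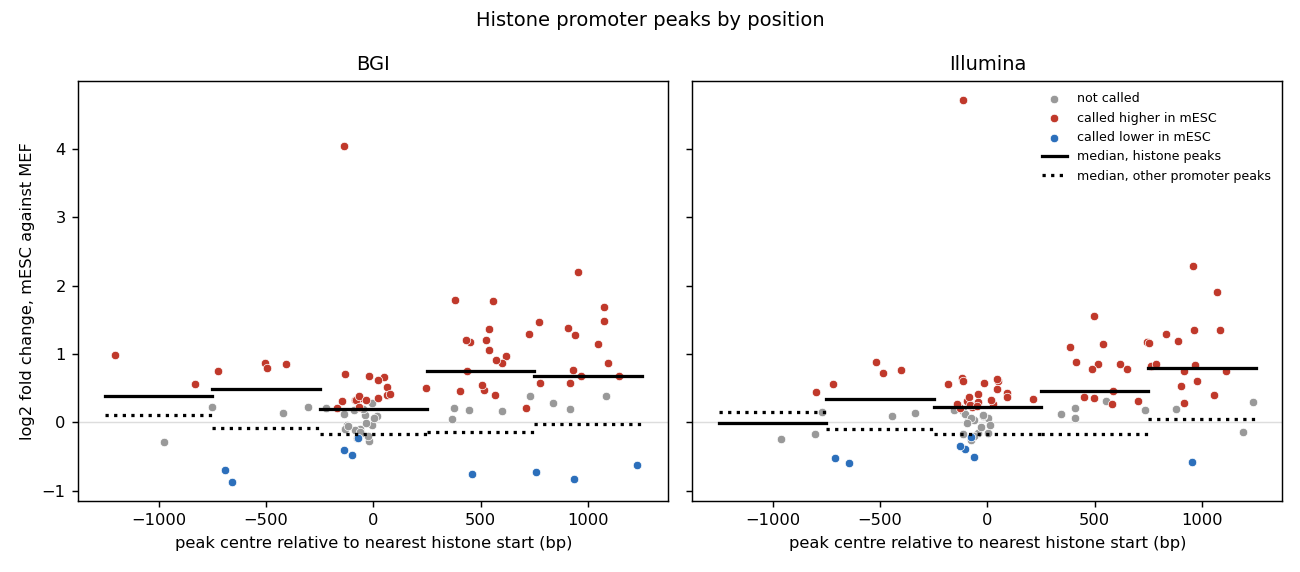
Each point is 1 of 95 histone peaks per platform, placed by the distance of its centre from the nearest histone gene start (base pairs, downstream positive) and its log2 fold change in mESCs against MEFs. Lines are medians in windows of distance. The medians of the histone peaks lie above those of the other promoter peaks in each window except the farthest upstream one on Illumina, and the points downstream of the start reach higher than those around it, apart from the single peak of Hist1h2aa and Hist1h2ba.

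The start-covering and the nearest downstream peak could be compared within 20 genes on BGI. The downstream peak had the more positive log2 fold change in 14 of the 20, with a median difference of 0.69 between them. On Illumina it did so in 20 of 24 genes, with a median difference of 0.55. Because downstream peaks were listed more often in mESCs than in MEFs, the selection of peaks favours this direction. The exceptions on BGI were Hist1h2bh, Hist1h3i, Hist1h4h, Hist2h4, Hist3h2a and Hist3h2ba. Summed over all histone peaks, the level on BGI was between 1588 and 1718 CPM in the MEF libraries and between 2143 and 2270 CPM in the mESC libraries, without overlap. The share of these reads in peaks that did not cover a start was 34.8%, 31.8% and 32.1% in the MEF libraries and 40.3%, 39.1% and 41.8% in the mESC libraries. On Illumina the shares ran from 29.7% to 32.2% in MEFs and from 35.7% to 37.4% in mESCs. The mESC libraries were above the MEF libraries on both platforms, though an exact permutation test of 3 against 3 could not go below 0.10. Single-library peak calls, made at a looser threshold, placed 70 to 79 summits downstream of histone starts in MEFs and 82 to 87 in mESCs on BGI, and 62 to 72 and 70 to 86 on Illumina, where the ranges overlapped. Over the whole genome these calls also held more summits in mESCs, 236601 to 251837 against 223387 to 230117 in MEFs on BGI and 229198 to 276268 against 216566 to 219464 on Illumina, and the part of this in the histone counts was not tested. Downstream summits were thus called in MEFs as well, although the reproducible peak sets held 22 downstream histone peaks in MEFs and 46 in mESCs.

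**Figure D2:**
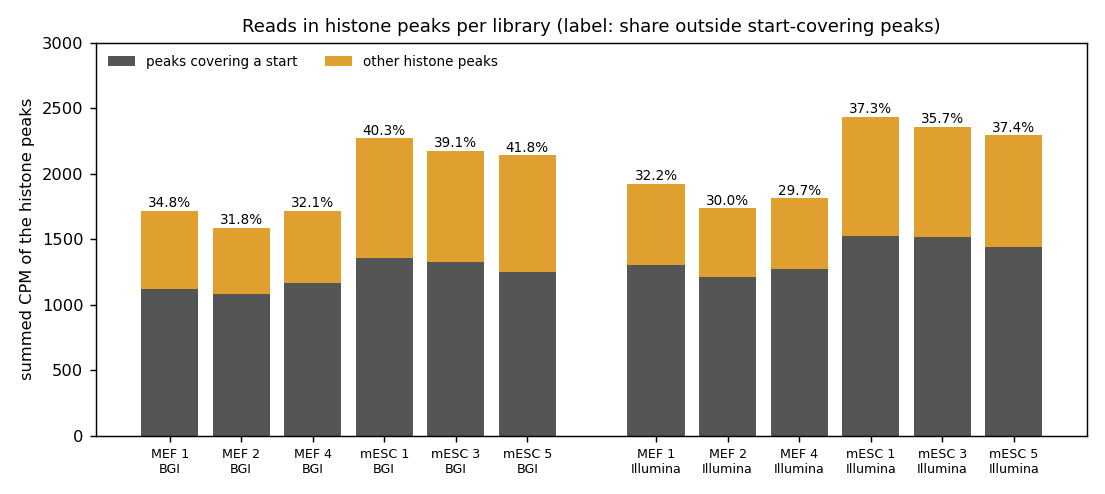
Summed CPM of the histone peaks in each of the 12 samples, divided into peaks that cover a start and other histone peaks, with the share of the other peaks printed above each bar. On BGI the MEF bars end between 1588 and 1718 CPM and the mESC bars between 2143 and 2270 CPM, and the share above each mESC bar exceeds that above each MEF bar on the same platform.

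Among the linker histones, the peak 956 bases downstream of the Hist1h1a start (chromosome 13, 23764371 to 23764872) had 5.08, 2.19 and 3.09 CPM in the MEF libraries and 17.9, 14.2 and 18.3 CPM in the mESC libraries on BGI. All mESC libraries lay well above all MEF libraries, and the difference was 2.20 ± 0.23 on the log2 scale (SE from edgeR, adjusted p = 9.19e-08). At the Hist1h1a start itself the libraries overlapped, with 18.4, 15.7 and 22.4 CPM in MEFs and 19.4, 18.6 and 20.5 CPM in mESCs, and a log2 fold change of -0.02 ± 0.13. Hist1h1b and Hist1h1c showed the same order of a larger difference downstream. For Hist1h1b the start peak had 18.0, 17.4 and 19.4 CPM in MEFs and 19.7, 20.2 and 21.7 CPM in mESCs, a log2 fold change of 0.10 that was not called. Its peak 1094 bases downstream rose from 20.4, 15.8 and 18.4 CPM to 37.1, 33.4 and 34.4 CPM (log2 fold change 0.87). Hist1h1c, one of the linker histones also made outside S phase, carried the strongest histone peak of mESCs 932 bases downstream of its start, with 51.1, 42.0 and 46.8 CPM in MEFs and 80.4, 86.3 and 82.2 CPM in mESCs (log2 fold change 0.76). At the Hist1h1c start the difference was smaller (log2 fold change 0.40) and was also called. Hist1h1e, with 24.1, 22.5 and 22.8 CPM in MEFs and 23.8, 22.4 and 25.03 CPM in mESCs at its start, was not called. In all, 4 of 7 H1 peaks on BGI were higher and none lower, where 40.9% of all peaks were higher and 43.2% lower. These were all 3 downstream peaks and 1 of the 4 that cover a start.

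**Figure D3:**
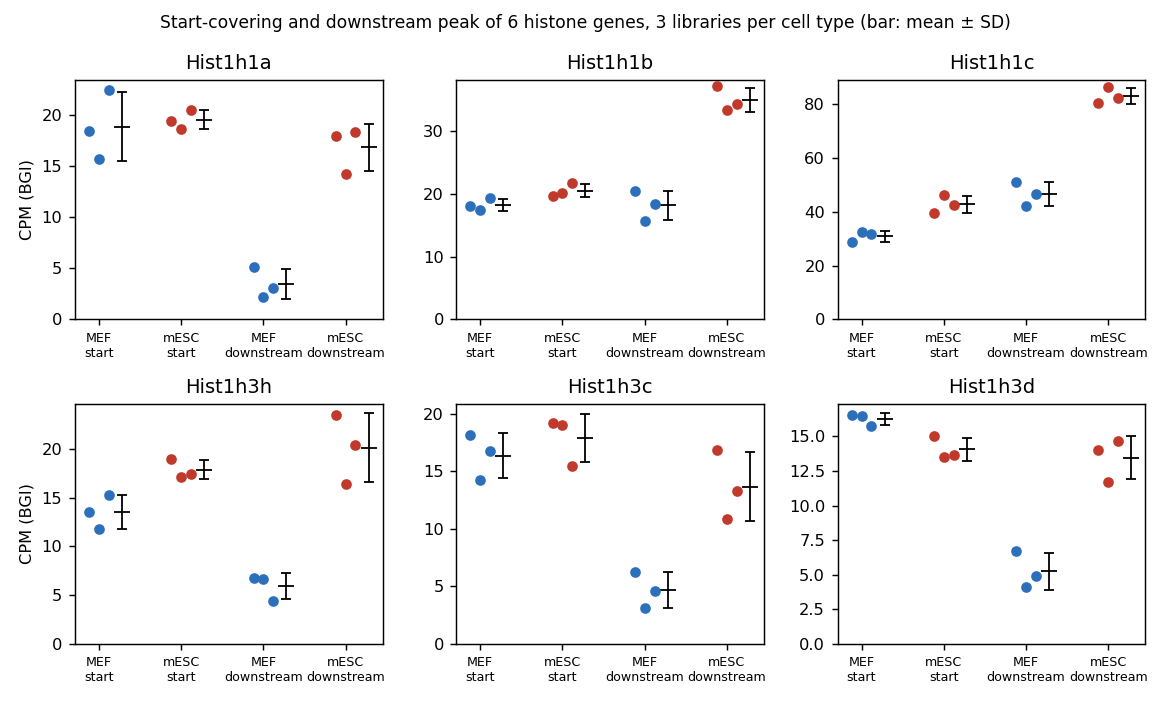
CPM on BGI of the start-covering peak and the nearest downstream peak of 6 histone genes chosen after their values had been seen. Points are the 3 libraries of each cell type, and bars beside them are the mean ± SD. For Hist1h1a the start peaks overlap at 15.7 to 22.4 CPM, whereas the downstream peak lies between 2.19 and 5.08 CPM in MEFs and between 14.2 and 18.3 CPM in mESCs.

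The single largest difference belonged to Hist1h2aa and Hist1h2ba, a divergent pair that encodes the testis histones TH2A and TH2B. Their shared start peak (chromosome 13, 23934074 to 23934575) had 0.785, 0.596 and 0.299 CPM in the MEF libraries and 11.5, 9.87 and 8.01 CPM in the mESC libraries on BGI. The log2 fold change was 4.04 ± 0.31 (SE, adjusted p = 1.58e-09), and 4.71 ± 0.33 on Illumina, where MEF libraries had 0.2798, 0.248 and 0.492 CPM and mESC libraries 11.8, 9.26 and 7.01 CPM. In the single-library calls a summit was present near this start in all 6 mESC samples and in none of the 6 MEF samples. Even in mESCs this was one of the weaker start peaks of the histone set, whose start-covering peaks had a median of 28.5 CPM. Its promoter, printed above, was the only one of the 6 shown that held all 4 motifs.

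Other H2A and H2B genes stand mostly in divergent pairs, with a strong peak between the partners and weaker ones beyond each gene. The pair Hist1h2ak and Hist1h2bn had the strongest histone peak in MEFs (chromosome 13, 21753709 to 21754210), with 56.7, 58.9 and 60.6 CPM against 63.3, 57.6 and 52.5 CPM in mESCs, and the groups overlapped (log2 fold change -0.09). The peak between Hist1h2ah and Hist1h2bk was nearly as strong, with 52.2, 57.7 and 58.5 CPM in MEFs and 64.2, 64.5 and 62.9 CPM in mESCs, and was not called on BGI (log2 fold change 0.12). In contrast, the peak 558 bases downstream of the Hist1h2bk start (chromosome 13, 22036177 to 22036678) rose from 6.05, 6.41 and 6.02 CPM to 23.0, 18.9 and 24.3 CPM (log2 fold change 1.77 ± 0.14, adjusted p = 3.11e-09). The pair Hist1h2an and Hist1h2bp did rise at its shared start, from 44.0, 43.6 and 44.4 CPM to 62.1, 60.7 and 54.3 CPM (log2 fold change 0.36). Counting each peak once, by the type of its nearest start, 4 of 13 start-covering H2A peaks were higher and 1 lower on BGI, and 3 of 8 H2B peaks were higher and 2 lower, beside 40.9% of all peaks called higher. On Illumina these were 6 of 13 H2A peaks higher and 1 lower and again 3 of 8 H2B peaks higher and 2 lower, beside 42.1% of all peaks. Among start-covering peaks of other protein-coding genes, 24.7% were higher and 42.6% lower on BGI, and 24.95% and 44.7% on Illumina. Downstream on BGI, 5 of 6 H2A peaks were higher and 1 lower, and 10 of 16 H2B peaks were higher and 2 lower. Downstream on Illumina, 5 of 5 H2A peaks and 8 of 13 H2B peaks were higher and 0 lower.

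For H3, 4 of 9 start-covering peaks were higher and 5 not called on BGI. This was close to the 40.9% of all peaks called higher, and above the 24.7% of start-covering peaks of other protein-coding genes. Of those other start-covering peaks 42.6% were lower. Downstream, 4 of 7 H3 peaks were higher, 1 lower and 2 not called. The peak 1074 bases downstream of the Hist1h3h start (chromosome 13, 21718482 to 21718983) rose from 6.79, 6.61 and 4.38 CPM in MEFs to 23.5, 16.4 and 20.4 CPM in mESCs (log2 fold change 1.69 ± 0.18, adjusted p = 1.28e-07). Its start peak rose less, with a log2 fold change of 0.33. Hist1h3c and Hist1h3d had differences of 1.48 and 1.28 downstream, and 0.06 and -0.28 at the start, neither of which passed the test. Hist1h3i was the exception among H3 genes: its downstream peak fell from 15.8, 12.6 and 13.2 CPM to 9.71, 6.62 and 8.39 CPM (log2 fold change -0.82).

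For H4, start-covering peaks rose about as often as downstream peaks. On BGI 6 of 7 start-covering H4 peaks (median 0.52) and 8 of 10 downstream H4 peaks (median 0.71) were higher and none lower, where 40.9% of all peaks were higher and 43.2% lower. On Illumina 8 of 10 start-covering H4 peaks were higher and 1, that of Hist4h4, lower, and 10 of 11 downstream H4 peaks were higher (42.1% of all peaks higher, 42.4% lower). Hist1h4d is an example, with 19.2, 17.7 and 22.01 CPM at its start in MEFs and 33.0, 29.6 and 31.9 CPM in mESCs (log2 fold change 0.62). Hist1h4i and Hist1h4k rose by 0.66 and 0.68 at their starts on the log2 scale. The peak 380 bases downstream of the Hist1h4b start (chromosome 13, 23757142 to 23757643) rose from 8.86, 6.36 and 7.77 CPM to 28.6, 29.3 and 25.5 CPM (log2 fold change 1.79 ± 0.14, adjusted p = 2.22e-09). Upstream of Hist1h4a, in the interval it shares with Hist1h3a, the strongest mESC peak of the H4 genes rose from 31.1, 25.8 and 28.3 CPM to 53.0, 56.2 and 52.4 CPM (log2 fold change 0.86). The peak 448 bases downstream of Hist1h4j rose from 8.96, 9.29 and 8.86 CPM to 19.0, 22.8 and 22.3 CPM (log2 fold change 1.17). Hist1h4c was the start-covering H4 peak that was not called, at 22.4, 20.6 and 27.9 CPM in MEFs and 22.6, 22.1 and 21.6 CPM in mESCs. Differences between histone types were not tested, since peaks share genes and starts.

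**Figure D4:**
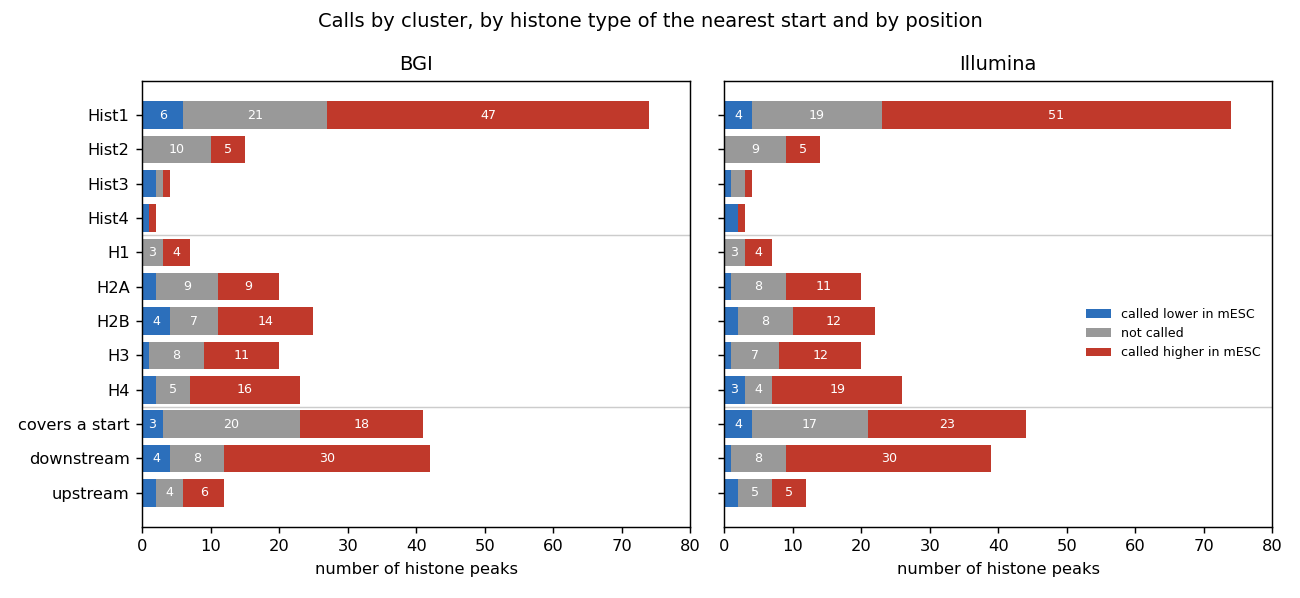
Number of histone peaks called lower, not called and called higher in mESCs, by cluster, by the histone type of the nearest start and by position, on both platforms. Each peak counts once in each of the 3 groupings. On BGI 30 of 42 downstream peaks and 18 of 41 start-covering peaks were higher.

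Of the histone peaks, 9 were less accessible in mESCs on BGI. Besides Hist1h3i, the strongest evidence was at Hist3h2a, whose peak 462 bases downstream of the start (chromosome 11, 58954896 to 58955397) fell from 23.1, 23.7 and 21.2 CPM to 14.9, 14.0 and 13.2 CPM (log2 fold change -0.76 ± 0.12, adjusted p = 1.35e-05). The peak shared by Hist1h2bh and Hist1h3f at the start (chromosome 13, 23543241 to 23543742) fell from 40.3, 38.5 and 41.9 CPM to 34.4, 27.0 and 29.2 CPM (log2 fold change -0.48). These groups did not overlap. The start peak of Hist1h2be fell from 29.5, 24.2 and 29.3 CPM to 22.9, 18.0 and 24.6 CPM (log2 fold change -0.41), so that 1 mESC library lay above the lowest MEF library. GENCODE places this start far from the other end of Hist1h2be. The peak is centred 530 bases past the stem-loop of the neighbouring Hist1h1e gene. Upstream of Hist4h4 and of Hist1h4h, peaks fell with log2 fold changes of -0.87 and -0.69, while a nearer peak of each gene rose.

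By cluster, the Hist1 peaks carried most of the rise. On BGI 47 of 74 Hist1 peaks (63.5%) were higher and 6 lower (median 0.39), and on Illumina 51 of 74 were higher and 4 lower. In Hist2, 5 of 15 peaks (33.3%) were higher and none lower, with 10 not called (median 0.22). This share was below the 40.9% of all peaks and above the 29.1% of other protein-coding promoter peaks. The Hist2 start peaks were close to equal in both cell types: the peak of Hist2h2bb and Hist2h3b, the strongest of the cluster, had 40.7, 37.2 and 39.9 CPM in MEFs and 41.3, 41.1 and 36.5 CPM in mESCs. The peak of Hist2h2ac, Hist2h2ab and Hist2h2be had 33.0, 34.0 and 35.2 CPM against 34.9, 31.7 and 30.6 CPM, and again the groups overlapped. Hist2h4 rose at its start, from 19.3, 16.1 and 22.1 CPM to 29.8, 27.4 and 28.3 CPM (log2 fold change 0.51). The near-identical copies Hist2h2aa1, Hist2h2aa2, Hist2h3c1 and Hist2h3c2 share sequence: 74.4% of the 100-base windows of the peak between Hist2h3c2 and Hist2h2aa2 (log2 fold change 0.87) and 75.4% of those between Hist2h2aa1 and Hist2h3c1 (0.79) occur elsewhere in the genome. Reads there cannot be assigned to 1 copy, and those values are uncertain.

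The 2 genes of Hist3 went opposite ways at their starts. Hist3h2ba rose from 14.5, 17.8 and 15.5 CPM to 26.9, 27.9 and 27.1 CPM (log2 fold change 0.71 ± 0.11, adjusted p = 1.56e-05), and its libraries did not overlap. Hist3h2a, starting less than 6 kb away, fell from 32.3, 34.0 and 35.8 CPM to 30.8, 30.9 and 29.4 CPM (log2 fold change -0.23, adjusted p = 0.029). Hist4h4 had its strongest peak 568 bases downstream of the start, which rose from 20.1, 20.3 and 21.3 CPM to 28.0, 27.9 and 29.7 CPM (log2 fold change 0.40). On Illumina a peak at the Hist4h4 start was also listed, and was lower in mESCs (log2 fold change -0.51).

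No peak was listed for 6 genes on either platform, all in Hist1. Of these, 4 form the divergent pairs Hist1h2bq with Hist1h2ao and Hist1h2ap with Hist1h2br, and every 100-base window around their starts (100%) occurs more than once in the genome. No summit was called there in any of the 12 samples, and their accessibility could not be measured with uniquely placed reads. The start of Hist1h1d in GENCODE lies 1770 bases from that in RefSeq. With the RefSeq start, chosen after seeing the data, Hist1h1d had a peak at the start with 24.5, 23.5 and 28.0 CPM in MEFs and 39.5, 40.9 and 39.9 CPM in mESCs (log2 fold change 0.60). It then also had a downstream peak with a log2 fold change of 0.96, so that it followed the order of Hist1h1a, Hist1h1b and Hist1h1c. The RefSeq starts also added a BGI peak for Hist1h2ab (chromosome 13, 23749598 to 23750099), which fell from 10.9, 7.21 and 5.23 CPM in MEFs to 4.04, 1.71 and 2.73 CPM in mESCs, without overlap. This upstream peak lies just outside 1 kb of the GENCODE start. It fell by more (-1.54 ± 0.31 on the log2 scale, edgeR SE, adjusted p = 0.000175) than any of the 9 lower peaks of the GENCODE starts. Hist1h1t, the testis linker histone, had summits in all 6 mESC samples, with -log10 p from 11.99 to 18.9, and in 3 of 6 MEF samples, with -log10 p from 3.4 to 5.9.

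The stem-loop at the end of histone messenger RNAs was searched in the genome as a 16-base sequence with a stem of 6 bases and a loop of 4, within 1500 bases downstream of the start on the gene's strand (the RefSeq start for histone genes, the GENCODE start for the others). The stem arms had to match the known consensus, with pyrimidines in the first arm and purines in the second. This search was added after the data had been seen, because most of the downstream peaks lay near the ends of the genes. It was found for 64 of the 67 genes and for 11 of 21871 other protein-coding genes, H2afx and H2bfm among them. It began 354 to 880 bases from the start, with a median of 462 bases. The commonest forms are shown with the gene they belong to, followed by that of Hist1h4b, which has the largest difference among H4 peaks on BGI. The first form stood in 40 genes, the second in 9 and the third, an H4 form, in 8, while Hist1h4b and Hist1h4j shared the fourth.
Hist1h1a stem-loop, chr13:23764392-23764407, plus strand: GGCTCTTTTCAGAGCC
Hist1h2bk stem-loop, chr13:22036300-22036315, plus strand: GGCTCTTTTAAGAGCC
Hist1h4d stem-loop, chr13:23581950-23581965, plus strand: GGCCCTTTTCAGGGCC
Hist1h4b stem-loop, chr13:23757366-23757381, plus strand: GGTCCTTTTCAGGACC

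Peaks that covered a stem-loop were among those that differed most. On BGI 20 of 23 such peaks were higher in mESCs, 1 was lower (Hist3h2a) and the median log2 fold change was 0.86, against 34 higher and 8 lower of the 72 other histone peaks with a median of 0.22. Over all peaks 40.9% were higher on BGI and 42.1% on Illumina. On Illumina 17 of 20 were higher and none lower (median 0.76), against 41 of 75 with 7 lower (median 0.26). Among downstream peaks alone the difference was smaller: 17 of 20 with a stem-loop (median 0.89) and 13 of 22 without one (median 0.57) were higher on BGI, with medians of 0.78 and 0.68 on Illumina. A stem-loop and a position past the coding sequence go together, and their parts in the result cannot be told apart. Repeated sequence also went with the calls. Among the 59 BGI peaks free of any 100-base window found elsewhere in the genome 30 were higher and 9 lower, and among the 36 others 24 were higher and none lower.

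The same 95 BGI peaks were also counted with the Illumina reads of the same libraries. With both sets of reads 52 were higher, 7 lower and 26 not called, none changed direction, and 10 were called with the reads of 1 platform only. These 10 had small differences or weak peaks: Hist1h2bk, Hist1h2ad, Hist1h2ac, Hist1h2bb and Hist1h3a at the start, and peaks downstream of Hist1h2bl (2 peaks), Hist1h2bj, Hist1h2bh and Hist2h4. The largest gap among them was at the Hist1h2bh peak 756 bases downstream, with a log2 fold change of -0.72 on BGI and -0.28 on Illumina. In the test of the interaction between platform and cell type, 0 of 95 histone peaks were called by edgeR and 0 by DESeq2, while 5 and 1 had an unadjusted p below 0.05. Of all 91354 peaks, 2386 and 1388 had such a p. A replicate block by library is apt because each library was sequenced on both platforms. With it, 30 of 95 histone peaks had an unadjusted p below 0.05 in edgeR, against 12094 of 91354 peaks in all. After adjustment 1 histone peak was called (0.386% of all peaks were). This was the Hist1h4b downstream peak, which differed more between cell types on BGI by 0.54 ± 0.11 on the log2 scale (adjusted p = 0.018), where the median of all peaks was 0.11. Another scaling (RLE) lowered the median of all peaks in the unblocked interaction by 0.12, from 0.11 to -0.01. On Illumina it had 12.4, 10.6 and 10.6 CPM in MEFs and 31.7, 30.1 and 28.8 CPM in mESCs.

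Histone peaks tended to hold fewer reads on BGI than on Illumina within a cell type. Of 75 histone peaks in the peak set made for MEFs, 1 was lower on BGI and none higher (13 had an unadjusted p below 0.05, and DESeq2 called 8 lower and 0 higher), where 3.96% of all peaks were called lower. With the library as replicate block 22 were lower and 2 higher, against 15.3% of all peaks called lower, while 8604 of 61891 peaks were called higher. Of the other promoter peaks 8472 of 21723 were called lower in that fit. Of 101 histone peaks in the mESC set 3 were lower and none higher (24 with an unadjusted p below 0.05, and DESeq2 called 4 lower and 0 higher), against 3.19% of all peaks, and with the block 42 were lower and 1 higher, against 15.6% of all peaks and 8758 of 23469 other promoter peaks called lower and 3873 of 67063 peaks called higher. The medians were -0.11 in MEFs and -0.13 in mESCs on the log2 scale, close to the -0.12 of other promoter peaks in both. Other promoter peaks, however, had a median GC content of 61.1% in the MEF set and 60.8% in the mESC set, and the histone peaks 50.6% and 49.6%. Other peaks of any kind within 2.5 points of the histone median GC content had medians of +0.13 and +0.08. The called peak in MEFs was the start of Hist1h4h, with 15.2, 13.1 and 16.02 CPM on BGI and 23.5, 19.5 and 20.3 CPM on Illumina (log2 fold change -0.54). In mESCs the called peaks were the starts of Hist1h4h and Hist1h4c (-0.42 and -0.40) and the upstream peak of Hist2h2aa1 (-0.53). These calls, from the fit without the block, were lost with a GC offset and when certain libraries were left out.

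**Figure D5:**
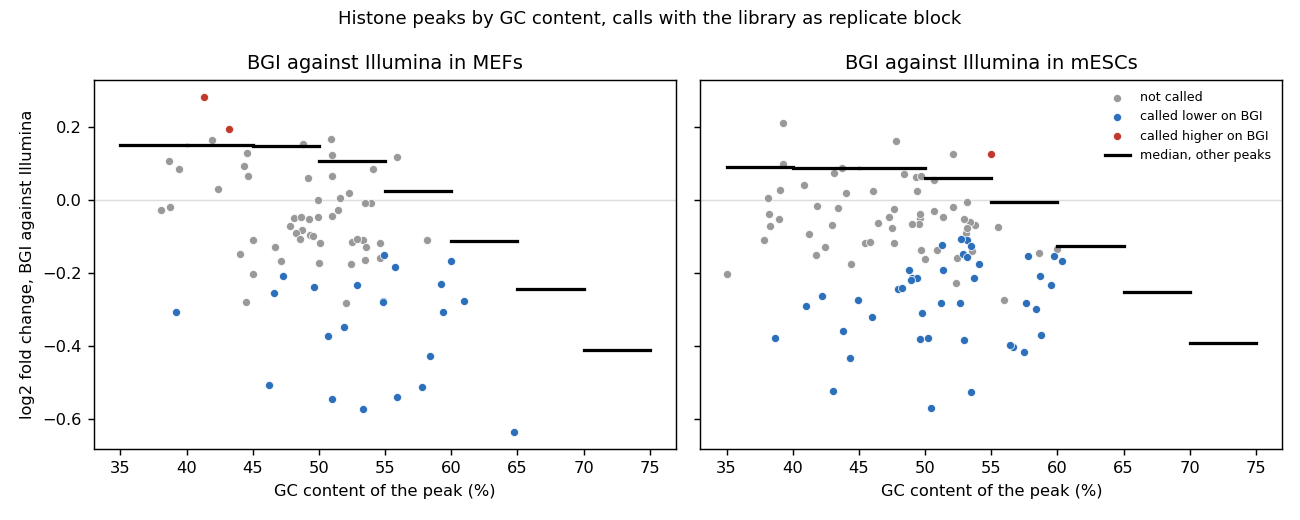
Log2 fold change of BGI against Illumina for the histone peaks of the MEF set (left) and the mESC set (right) against the GC content of the peak, from the fit with the library as replicate block. Black lines are medians of all other peaks in windows of 5 GC points. Peaks called lower on BGI, 22 in MEFs and 42 in mESCs, have negative values by definition. The medians of other peaks are nearly level up to 50% GC and fall above it. In the window with the most histone peaks, 50% to 55% GC, all histone peaks had a median of -0.12 in MEFs and -0.13 in mESCs. Other peaks of that window had medians of 0.11 and 0.06.

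Genes that act on the histone clusters or lie beside them were examined by lists, beside 40.9% of all peaks called higher, 43.2% called lower and a median of -0.08 on BGI. Each was represented by its strongest peak within 1 kb of a start. Start-covering peaks of other protein-coding genes were 24.7% higher and 42.6% lower on BGI, with a median of -0.16. Lower calls were thus common at promoters in general. Of 18 genes for histone gene expression, among them the coactivator Npat, the stem-loop binding protein Slbp and subunits of the CCAAT-binding factor, none was higher and 9 were lower on BGI (median -0.20). The lowest p-values among them belonged to Yy1 (63.4 ± 2.5 CPM in MEFs and 42.0 ± 4.4 CPM in mESCs, mean ± SD, log2 fold change -0.66), Ncbp1 (-0.52), Cpsf3 (-0.44) and Nfyc (-0.40). Of 16 histone chaperones 2 were higher and 7 lower (median -0.20), with Asf1a at -0.70, Chaf1b at -0.47 and Hira at -0.46, and the FACT subunit gene Ssrp1 higher at 0.38. Of 12 genes for histones made outside S phase, 3 were higher and 6 lower (median -0.28). H1foo, the oocyte linker histone, fell from 7.43, 6.21 and 6.57 CPM in MEFs to 0.757, 0.769 and 0.311 CPM in mESCs (log2 fold change -3.51), and H2afy2, H3f3b and Cenpa were lower at -0.98, -0.54 and -0.46. On Illumina these 3 lists had 10, 8 and 6 members lower and 0, 2 and 2 higher. Of the non-histone genes between the Hist1 genes, 8 of 49 had a promoter peak, of which 2 were higher and 3 lower (median -0.16). Of those within 200 kb, 6 of 8 had one near Hist2 (2 higher, none lower, median 0.22), 7 of 15 near Hist3 (3 higher, 3 lower, median 0.11) and 6 of 11 near Hist4h4 (2 higher, 2 lower, median 0.09). On Illumina the same neighbours had 2, 1, 1 and 2 higher and 2, 1, 3 and 2 lower.

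The libraries held between 15860985 and 21662775 reads in peaks on BGI and between 15996202 and 21441767 on Illumina, with more in MEFs than in mESCs, as they had been down-sampled to different depths. The labelled cell types were checked on promoter peaks of marker genes. All 6 mESC markers (Pou5f1, Nanog, Sox2, Esrrb, Epcam and Zfp42) were higher in mESCs and 5 of 6 fibroblast markers were lower, with Pdgfra not called. Summed over the list, the mESC markers had 20.6 to 21.3 CPM in MEFs and 168 to 202 CPM in mESCs on BGI, and the fibroblast markers 179 to 213 and 62.7 to 73.4 CPM. Of the endoderm markers Sox17, Foxa2 and Gata4 were higher in mESCs and Gata6 lower, with summed levels of 48.0 to 56.2 CPM in MEFs and 66.8 to 75.2 CPM in mESCs, and the trophoblast marker Eomes was higher (6.67 to 8.75 and 17.3 to 20.4 CPM) while Cdx2 had no peak. Their part in the histone result was not tested. Of the endothelial and blood markers Pecam1 was not called, and Cdh5 and Ptprc had no peak.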

How the data were processed

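The authors trimmed the Illumina reads to 100 bases, aligned reads of both platforms to GRCm38 (mm10) with Bowtie2, removed duplicate, mitochondrial and poorly placed reads, down-sampled to 60000000 reads per MEF and 45000000 per mESC sample and called peaks per sample with MACS2. They kept fixed-width peaks found in at least 2 of 3 replicates, merged them and counted reads with subread. Peaks have 1 width in the tables of each platform, while those of the sets of each cell type differ in width. The deposited tables hold these raw read counts per peak, and the deposited peak files of single samples hold -log10 p values of summits against a genome-wide background. Because multiply placed reads were filtered out, counts over repeated sequence understate accessibility. Columns that name BGI were taken as BGI and those without a platform as Illumina.

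Counts were tested for all peaks of a table with edgeR 4.0.16 (R 4.3.3; quasi-likelihood, TMM, two-sided, Benjamini-Hochberg), after checks on simulated data. The filter on low counts removed 0 peaks of the BGI table. DESeq2 1.42.0, other scalings, filters, windows around the start, annotated starts and left-out libraries were alternatives. Fold changes are from the fit, and CPM is not TMM-scaled. Named peaks were the 6 of lowest p in each direction on BGI, the strongest of each cluster and type, those of all linker and testis histones and of Hist2, Hist3 and Hist4, genes with no peak, and peaks called on 1 platform only, between platforms or in the interaction. Other lists were named by up to 4 members of lowest p, and further peaks were given as examples after their values were seen. Positions relative to the start, stem-loops, repeated windows and RefSeq starts were added after seeing the data. Members, lists and tests were chosen with earlier results of these data known.

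Same-numbered samples of a cell type are the same library on both platforms. Their deviations from the group mean correlated with r from 0.51 to 0.84, and those of different libraries with at most 0.30, so the library was used as replicate block beside the fit without it. With 3 libraries per cell type, p-values rest on the spread between them.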

Additional observations from a re-analysis of the deposited data

Results flagged for a closer look

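The peak centred 380 bases downstream of the Hist1h4b start stood out because its difference between cell types was itself different on the 2 platforms. The interaction of platform and cell type was 0.54 ± 0.11 (log2, SE) in the edgeR fit with the library as replicate block (adjusted p = 0.018 over all peaks), where the median of all peaks was 0.11. Over all peaks, that fit called 346 more positive on BGI and 7 more negative, so its direction was the common one. The difference at the Hist1h4b peak was more positive on BGI, where the MEF libraries had 8.86, 6.36 and 7.77 CPM, than on Illumina. There they had 12.4, 10.6 and 10.6 CPM, while all mESC samples lay between 25.5 and 31.7 CPM. Without the block the same size did not pass the adjustment (unadjusted p = 0.0068). Of the 100-base windows in this peak, 21.1% occur elsewhere in the genome.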

How the results depend on the processing

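No histone result reversed under any alternative. Counts of called peaks stayed within 1.5 times in 178 of 222 cases, and of 715 values of 55 named peaks 626 kept their call, 46 lost it, 43 gained it and 28 uncalled ones changed sign. Requiring a log2 fold change of at least 1 as well left 16 higher peaks on BGI (1 at a start, 15 downstream, 0 lower) and 12 on Illumina (1 at a start, 11 downstream, 0 lower). The share of all peaks that met this limit is not given, so these counts have no background beside them. Peaks free of repeated 100-base windows, a choice made after seeing the data, numbered 30 higher on BGI (9 at a start, 17 downstream) and 32 on Illumina (10 and 19). On Illumina the 7 lower peaks became 4 with fixed down-sampled depths and 12 with both platforms summed.

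Leaving out 1 library in turn gave 45 to 57 higher peaks on BGI (14 to 20 at a start, 26 to 33 downstream, 7 to 9 lower) and 42 to 60 on Illumina (14 to 24 at a start, 24 to 32 downstream, 3 to 9 lower). The moves over 1.5 times were without MEF library 2 (14 at a start) or mESC library 3 (15), and, for lower peaks, without MEF library 1 (3) or mESC library 5 (4). No paired analysis was possible because MEF and mESC libraries share only 1 number in the comparison of cell types.

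Between platforms, the 1 lower peak in MEFs became 8 with DESeq2, 22 with the replicate block (2 higher), 0 with a GC offset and 41 with both. In mESCs 3 became 42 with the replicate block (1 higher), 0 with a GC offset and 43 with both. Leaving out libraries gave 0 to 27 lower and 0 to 1 higher in MEFs, and 0 to 29 and 0 to 1 in mESCs, over fits with and without the replicate block. Without the block, MEFs had 0, 0 and 9 lower without libraries 1, 2 and 4, and mESCs 0 without library 1 or 5. With it, they had 14, 15 and 27, and 28, 20 and 29 without libraries 1, 3 and 5. The interaction gave 0 calls, and 1 with the replicate block. The cause of these moves was not tested. Downstream peaks had a median of 7.54 CPM in MEFs on BGI and start-covering peaks 23.6 CPM, so that the former rest on fewer reads. The effect of depth on the calls was not tested.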
